A study of Rattus norvegicus with 19 samples.

Results

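The insulin-like growth factor (IGF) system was followed through rat Leydig cell development in 10 genes: the ligands Igf1 and Igf2, the receptors Igf1r and Igf2r, and the binding proteins Igfbp2, Igfbp3, Igfbp4, Igfbp5, Igfbp6 and Igfbp7. A probe set (a group of short probes that together read 1 transcript) was taken when its single gene symbol in the array's annotation was one of these names. This gave 23 probe sets for the 10 genes, of 14217 genes with a named probe set. Gene expression had been measured in 19 samples of Sprague-Dawley rat cells on Affymetrix arrays, 1 array per sample. They comprise 5 samples of stem Leydig cells, then 3 of the progenitor, 4 of the immature and 4 of the adult stage of the same cell type, and 3 of bone stem cells. No treatment, genotype, age, isolation method or culture condition is given in the sources used here for any group, and their effects and those of the stage cannot be told apart.

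IGF1 and IGF2 are small secreted proteins that resemble insulin. Both act through the type 1 IGF receptor, a tyrosine kinase that signals through insulin receptor substrates, phosphoinositide 3-kinase and AKT. The type 2 receptor, which is also the cation-independent mannose 6-phosphate receptor, takes IGF2 to lysosomes for breakdown. The secreted binding proteins hold the ligands outside the cell and can lengthen their life, block them from the receptor or release them after cleavage, and IGFBP6 prefers IGF2. IGFBP7 is a related protein that binds IGFs weakly. In the testis, IGF1 made locally by Leydig and other cells is known as a stimulus of Leydig cell proliferation and steroid production.

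The genes whose levels changed most fell into a pair that rose in progenitor cells and stayed high in adult cells (Igf1, Igfbp2), a pair of binding proteins that rose and then fell (Igfbp5, Igfbp6), and a receptor that fell in adult cells (Igf2r). The 250 bases upstream of the annotated start of these 5 genes are shown, 5′ to 3′ on the gene's own strand, from RefSeq on the GRCr8 build. Capitals mark matches, on either strand, to the E-box CANNTG, the GC box GGGCGG, the cAMP response motif TGACG, the TATA box TATAAA, the CCAAT box CCAAT and the binding sequence AAGGTCA of the steroidogenic regulator Nr5a1, and adjoining or overlapping matches run together. They lie at chr7:24172282-24172531 (plus strand) for Igf1, chr9:81864561-81864810 (plus strand) for Igfbp2, chr9:81914188-81914437 (minus strand) for Igfbp5, chr7:135154669-135154918 (plus strand) for Igfbp6 and chr1:50526628-50526877 (plus strand) for Igf2r.
Igf1: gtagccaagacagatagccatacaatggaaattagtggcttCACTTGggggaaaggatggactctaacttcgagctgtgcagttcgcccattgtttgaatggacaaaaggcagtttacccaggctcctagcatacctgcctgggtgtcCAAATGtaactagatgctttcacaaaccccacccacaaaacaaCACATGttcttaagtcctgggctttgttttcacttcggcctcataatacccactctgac
Igfbp2: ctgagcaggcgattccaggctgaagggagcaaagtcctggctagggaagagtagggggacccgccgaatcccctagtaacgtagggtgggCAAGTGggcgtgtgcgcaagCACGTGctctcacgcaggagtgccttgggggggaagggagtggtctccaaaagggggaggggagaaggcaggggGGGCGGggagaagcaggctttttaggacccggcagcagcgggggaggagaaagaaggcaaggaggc
Igfbp5: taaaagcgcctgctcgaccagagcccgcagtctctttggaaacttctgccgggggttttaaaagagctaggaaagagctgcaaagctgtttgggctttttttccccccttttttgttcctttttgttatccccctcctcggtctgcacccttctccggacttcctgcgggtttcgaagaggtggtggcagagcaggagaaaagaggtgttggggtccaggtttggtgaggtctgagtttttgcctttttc
Igfbp6: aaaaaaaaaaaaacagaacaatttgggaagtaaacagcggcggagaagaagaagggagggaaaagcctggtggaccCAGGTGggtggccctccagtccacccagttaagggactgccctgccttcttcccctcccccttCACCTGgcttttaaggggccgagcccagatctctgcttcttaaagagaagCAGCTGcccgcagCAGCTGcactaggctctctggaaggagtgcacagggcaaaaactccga
Igf2r: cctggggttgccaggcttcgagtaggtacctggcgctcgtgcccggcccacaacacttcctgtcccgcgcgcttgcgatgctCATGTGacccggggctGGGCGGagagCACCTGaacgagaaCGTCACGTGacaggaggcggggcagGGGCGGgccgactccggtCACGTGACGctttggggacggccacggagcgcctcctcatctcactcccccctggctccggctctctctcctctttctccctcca

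The 10 genes have 11 such upstream windows, since Igf2 has 2. An E-box match lay in 8 of the 11 windows and in 65.5% of the 33469 windows of all genes, so it was common in both. GC box matches lay in 5 windows (30.5% of all windows), and TATAAA in that of Igfbp4 alone (12.9%). TGACG lay only in that of Igf2r, which held 2 matches (18.2% of all windows held one). None of the 11 windows held CCAAT (34.0% of all windows) or AAGGTCA (4.0%). The window of Igfbp5 held none of the 6 patterns. A match is a description of the letters, and no match says only that these letters are not in this window. In gene order on GRCr8, Igfbp2 and Igfbp5 are neighbours on chromosome 9 and Igfbp3 stands next to Igfbp1 on chromosome 14.

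The values are MAS5 signals on a linear scale, already scaled by the authors to the same trimmed mean on each array. Differences were tested on log2(signal + 16) with limma, adjusted over 31042 probe sets, and are called when the adjusted p is under 0.05. A log2 change on this scale understates the fold of a dim gene. No detection calls were used, so a signal under 16 is named as such and has no tested floor. Where a gene has several probe sets, the brightest on average stands for it. Groups whose arrays do not overlap are named, but the share of all probe sets that do the same was not counted. The number of arrays limits the precision, and whether replicates are separate animals is not labelled, so the p-values cover the spread among these arrays alone, which may be technical. In these bulk samples, fewer cells of a type and less RNA per cell cannot be told apart.

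The labels of the later Leydig stages and of bone stem cells were checked against markers. Summed over 8 Leydig cell markers, the signal was 14366.1 to 22448.7 in progenitor, 12354.8 to 22836.1 in immature and 21317.8 to 32220.1 in adult arrays, against 370.0 to 1600.3 in stem Leydig arrays, where Cyp17a1 and Lhcgr lay under 16 on every array. The 6 bone and cartilage markers summed to 1089.7 to 1333.1 in bone stem arrays and to at most 95.6 on any Leydig array, but Bglap, Sost and Col2a1 lay under 16 in bone stem cells too. The 6 mesenchymal markers summed to 2944.3 to 3889.5 in stem Leydig and 3789.1 to 4214.0 in bone stem arrays. They summed to 2383.3 to 2884.5 in progenitor, 2280.4 to 3661.6 in immature and 2816.5 to 3409.4 in adult arrays. The stem Leydig range overlaps all but that of progenitor cells, so this list did not mark the stem label. The beta-actin probe sets at the 3′ and 5′ ends differed 6.35-fold on progenitor replicate 3, and 1.03- to 2.95-fold elsewhere. Stem Leydig arrays were at 1.16, 1.09, 1.84, 1.03 and 1.22. The range was 1.29 to 6.35 on progenitor, 1.54 to 1.7 on immature and 1.51 to 2.29 on adult arrays. The part of RNA quality in the differences between stages was not tested. Immature replicates 2 and 3 and bone stem replicates 2 and 3 were the closest pairs of arrays within a group. Results that change when these arrays are left out or averaged are given with their values.

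Each of the 10 genes differed among the 4 Leydig stages (moderated F-test, adjusted p from 6.65e-13 for Igfbp2 to 0.0408 for Igfbp7), as did 50.7% of all probe sets. The call of Igfbp7 was lost, at adjusted p from 0.0508 to 0.136, without any 1 of stem replicates 2 to 5, progenitor replicates 2 and 3, immature replicates 2 and 3, adult replicates 1 to 3 or bone stem replicate 3. It was also lost with median centring (0.0848), these groups alone (0.0563), the closest pairs averaged (0.0642) and progenitor replicate 3 and immature replicate 4 both out (0.0578). That of Igf1r was lost without stem replicate 1 (0.061) and in the mean of its probe sets (0.248). The steps differed. Between stem and progenitor cells 7 members rose and 1 fell, beside 36.7% of all probe sets called in either direction (22% higher, 14.7% lower), and the median log2 change of the members was 1.52, against 0.08 over all probe sets. Between progenitor and immature cells 0 of 10 passed the test, beside 1.3% of all probe sets (0.876% higher, 0.425% lower). Between immature and adult cells 2 rose and 3 fell, beside 21.1% of all probe sets (8.05% higher, 13% lower). Members are represented by their gene's brightest probe set, whereas the values over all probe sets include many dim ones. Without the 40% of probe sets of lowest mean signal, 9, 0 and 5 members were called at the 3 steps. The shares of the remaining probe sets called were 54%, 2.35% and 35.1%. Neighbouring steps share the samples of the stage between them. The split of all calls moved with the scaling: in progenitor against stem cells 59.9% of called probe sets were higher, 49.2% with quantile normalization and 34.3% with median centring, which put the median change at -0.15. In adult against immature cells these shares were 38.2%, 48.7% and 65.2%, with a median of 0.11 under median centring.

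**Figure D1:**
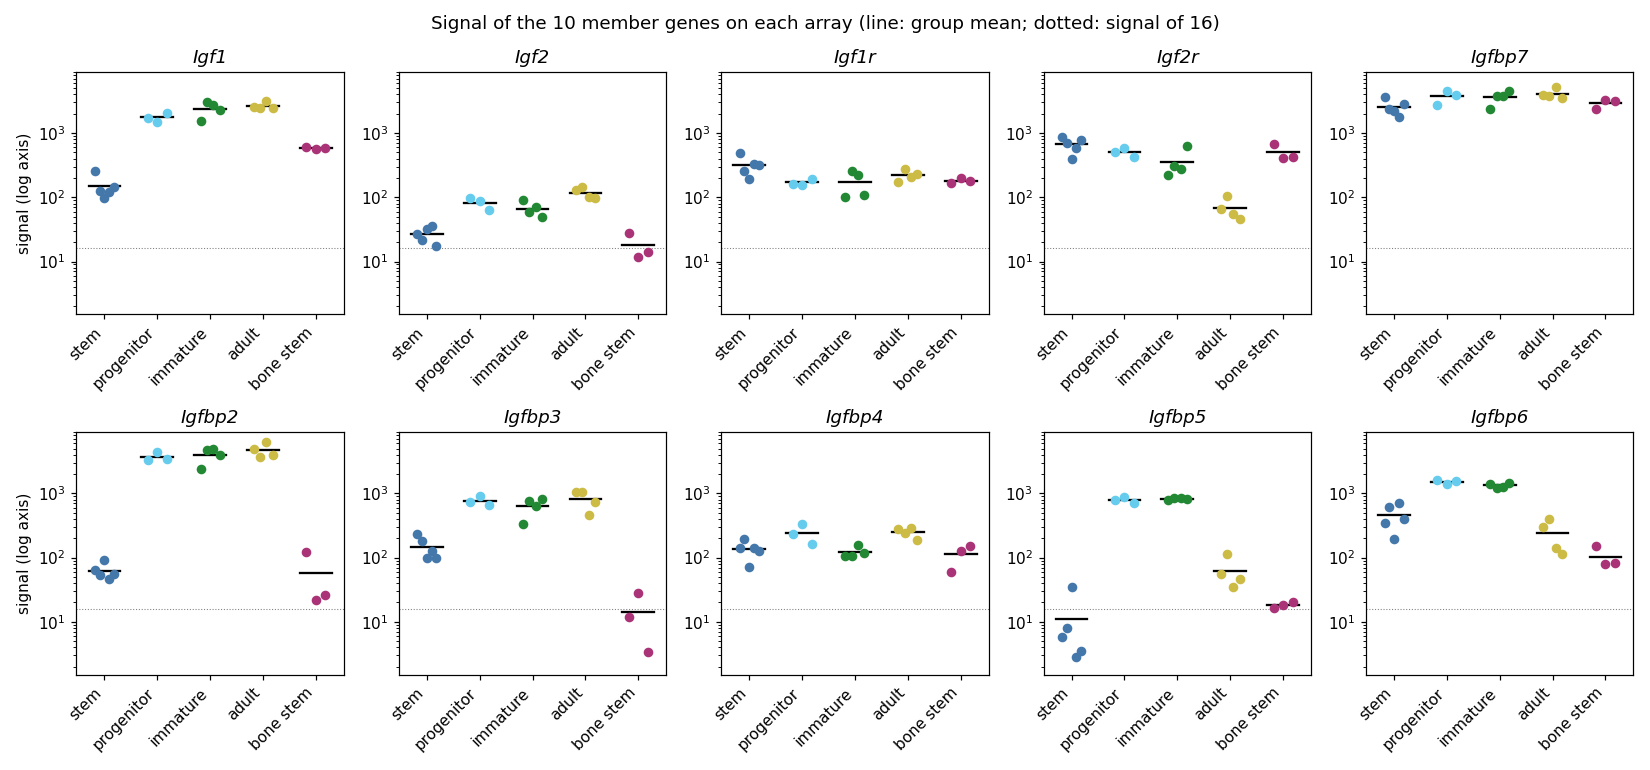
Signal of each member gene (log axis, MAS5 units) on every array, by group, for the probe set that represents the gene, with a black line at the group mean and a dotted line at a signal of 16. Igfbp2 lies at 2388 or above on all progenitor, immature and adult arrays and at 121.65 or below on all stem and bone stem arrays, while Igfbp5 and Igfbp6 are high in progenitor and immature cells only.

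Igf1, the ligand that mediates much of growth hormone action, was low in stem Leydig cells and high from the progenitor stage on. Its signal was 1721, 1479.95 and 2061 on the progenitor arrays, against 253, 124, 98.8, 123 and 146 on the stem arrays. The 2 groups do not overlap. The log2 change of progenitor against stem cells was 3.48 ± 0.22 (SE, adjusted p = 1.33e-10). Immature arrays read 1531, 3004, 2732 and 2319, and adult arrays 2538, 2467, 3140.6 and 2461. All of the adult values lie within the range of the immature ones except the highest. Neither later step passed the test, with log2 changes of 0.42 ± 0.23 for immature against progenitor cells (adjusted p = 0.532) and 0.18 ± 0.22 for adult against immature cells (adjusted p = 0.637). For adult against progenitor cells, whose arrays do not overlap, the log2 change was 0.60 ± 0.23 (adjusted p = 0.0715), and a fit of these groups alone called it (adjusted p = 0.0203). It also passed with median centring (0.011), array quality weights (0.00894), a pseudocount of 64 (0.0495), without the lowest 40% of probe sets (0.0492), with all probe sets averaged (0.0267), and without stem replicate 1 (0.0229) or immature replicate 1 (0.0395). The other Igf1 probe sets were called higher in progenitor cells as well, at 3.37 ± 0.23 and 2.95 ± 0.37.

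Igf2, the ligand best known from fetal growth, was dim throughout, and rose at the first step and again at the last. Its signal was 96.35, 88.3 and 64.01 on the progenitor arrays, against 26.9, 21.8, 32.5, 36.3 and 17.7 on the stem arrays. The groups do not overlap, and the log2 change was 1.20 ± 0.20 (adjusted p = 6.92e-05). Adult arrays read 131, 145, 102 and 96.0, against 89.5, 58.8, 69.5 and 49.85 on the immature arrays. Here too the groups do not overlap (log2 change 0.70 ± 0.20, adjusted p = 0.0127). The 3 other Igf2 probe sets lay under 16 on every array and were not called in any comparison, and when all probe sets of a gene were averaged the last step no longer passed (0.13, adjusted p = 0.369). Igf2 did not pass in immature against progenitor cells (-0.26 ± 0.21, adjusted p = 0.713). In adult against progenitor cells it missed the threshold (0.44, adjusted p = 0.146) but was called with quantile normalization (0.63, adjusted p = 0.0293) and median centring (0.62, adjusted p = 0.0373).

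Igf2r, the receptor that removes IGF2, fell in adult cells. The adult arrays read 66.75, 106, 54.4 and 45.6, against 223, 302, 281 and 621 on the immature arrays. Every adult array lies below every array of the other groups. The log2 change was -2.09 ± 0.28 (adjusted p = 1.43e-05), and -2.67 ± 0.30 for adult against progenitor cells (adjusted p = 1.11e-06), where 0 members rose and 3 fell beside 24.4% of all probe sets (9.65% higher, 14.8% lower), and where median centring also called Igf1 and Igf2 higher. Progenitor arrays read 509.8, 579.8 and 427, against 856, 707, 392, 592 and 779 on the stem arrays. These groups overlap, and neither this step (-0.35 ± 0.29, adjusted p = 0.383) nor immature against progenitor (-0.58 ± 0.30, adjusted p = 0.472) passed the test, although immature against stem cells did (-0.93 ± 0.26, adjusted p = 0.00753), where 6 members rose and 2 fell beside 39.7% of all probe sets (23.5% higher, 16.2% lower). The second Igf2r probe set was also called lower in adult than in immature cells (-1.45 ± 0.26, adjusted p = 0.000338). Igf2 and Igf2r differed between adult and immature cells in opposite directions, 0.70 and -2.09 on the log2 scale.

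Igf1r, the signalling receptor, differed among the 4 stages with an adjusted p of 0.0191 (F-test), the weakest of the ligands and receptors. It averaged 172 ± 20.8 in progenitor cells (SD, n = 3), against 318 ± 111 in stem cells (SD, n = 5). The ranges overlap, 156.5 to 195 in progenitor against 193 to 491 in stem cells. The fall of -0.78 ± 0.26 passed the test (adjusted p = 0.0256) but not without progenitor replicate 1 (adjusted p = 0.0721), progenitor replicate 2 (0.087) or stem replicate 1 (0.0671), nor in the mean of its probe sets (0.175). The second Igf1r probe set gave -0.16 ± 0.26 (adjusted p = 0.693). In immature cells Igf1r averaged 171 ± 77.8 and in adult cells 220.1 ± 44.5 (SD, n = 4 each), and neither later step passed (adjusted p = 0.951 and 0.298).

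The binding proteins showed 3 patterns over the stages. Igfbp2 and Igfbp3 rose in progenitor cells and stayed, Igfbp5 and Igfbp6 rose in progenitor cells and fell in adult cells, and no change of Igfbp4 or Igfbp7 between neighbouring stages exceeded 1 on the log2 scale. Of this last pair, Igfbp4 was called higher at the first (0.77) and last (0.94) steps, and Igfbp7 was called at no step. Of the 6, 5 rose and 0 fell between stem and progenitor cells (22% of all probe sets rose), with a median log2 change of 2.07. Between immature and adult cells 1 rose and 2 fell, with a median of 0.23, against -0.07 over all probe sets, of which 8.05% rose and 13% fell.

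Igfbp2, a binding protein found at high levels in fetal tissues and in several steroid-producing cells, had the largest log2 change of the members. Its rank above Igfbp5 depends on the pseudocount, since the stem mean of Igfbp5 was 11.1, under 16. It read 3264, 4353 and 3479 on the progenitor arrays, against 63.2, 52.7, 90.05, 46.5 and 55.1 on the stem arrays. No stem array came near a progenitor array, and the log2 change was 5.60 ± 0.32 (adjusted p = 2.24e-11). Immature arrays read 2388, 4677, 4857 and 4001, and adult arrays 4888, 3722, 6293 and 4024, so the 3 later stages overlap. Neither immature against progenitor cells (0.06 ± 0.34, adjusted p = 0.975) nor adult against immature cells (0.27 ± 0.31, adjusted p = 0.621) passed the test.

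Igfbp3, the main IGF carrier of blood, followed Igfbp2 at lower amplitude. It read 733, 909 and 650.4 on the progenitor arrays, against 233, 184, 99.1, 127 and 99.3 on the stem arrays. The groups do not overlap (log2 change 2.30 ± 0.33, adjusted p = 9.02e-06). It averaged 637 ± 216 in immature and 818 ± 281 in adult cells (SD, n = 4 each), and neither later step passed (adjusted p = 0.808 and 0.498). The second Igfbp3 probe set also rose in progenitor cells (1.75 ± 0.30) but pointed the other way at the last step, at -0.72 ± 0.29 (adjusted p = 0.09) against 0.36 ± 0.31 for the first.

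Igfbp5, a binding protein held in extracellular matrix, was the member with the sharpest rise and fall. It read 795, 865 and 719 on the progenitor arrays, against 5.79, 8.12, 35.2, 2.78 and 3.5 on the stem arrays. In stem cells 4 of 5 arrays lay under 16, so the log2 change of 5.01 ± 0.27 (adjusted p = 9.49e-12) depends on the pseudocount. The immature arrays, at 785, 838.5, 859 and 825, were close to the progenitor arrays (0.06 ± 0.28, adjusted p = 0.972). The adult arrays read 55.8, 112, 34.7 and 47.0. They lie below every immature and progenitor array, and the log2 change of adult against immature cells was -3.52 ± 0.26 (adjusted p = 1.23e-08). Adult cells still stood above stem cells (1.55 ± 0.25, adjusted p = 2.8e-05), although adult and stem arrays overlap by 1 array, stem replicate 3, and the mean of its probe sets did not pass (0.45, adjusted p = 0.0519). Of the 4 other Igfbp5 probe sets, 3 rose in progenitor cells and fell in adult cells, and the dimmest lay under 16 on every array.

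Igfbp6, the binding protein that prefers IGF2, moved in the same order at smaller size. It read 1604, 1391 and 1579 on the progenitor arrays, against 349, 612, 197, 699 and 406 on the stem arrays. The groups do not overlap (log2 change 1.84 ± 0.35, adjusted p = 0.000261). Adult arrays read 304, 393.5, 139 and 115, against 1381, 1226, 1260.3 and 1449.5 on the immature arrays. These groups do not overlap either (-2.56 ± 0.34, adjusted p = 1.27e-05). Adult cells came out below stem cells (-0.92 ± 0.32, adjusted p = 0.0248), a call lost without adult replicate 3 (adjusted p = 0.0992), adult replicate 4 (0.122), stem replicate 2 (0.0697) or stem replicate 4 (0.0762), with these groups alone (0.0748) and in the mean of its probe sets (0.0742). The second Igfbp6 probe set gave 2.12 ± 0.40 at the first step and -2.71 ± 0.39 at the last.

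Igfbp4, a binding protein that blocks IGF action and is cleaved by pappalysin, read 231, 331 and 164 on the progenitor arrays, against 143, 193, 72.0, 140.1 and 128 on the stem arrays. The groups overlap. The rise of 0.77 ± 0.27 (adjusted p = 0.0284) was lost with median centring (adjusted p = 0.117) and without progenitor replicate 1 (0.0646), progenitor replicate 2 (0.19) or stem replicate 3 (0.0734). Adult arrays read 279, 240.2, 286 and 188, against 105, 105, 159.6 and 118 on the immature arrays, which do not overlap, and the log2 change was 0.94 ± 0.26 (adjusted p = 0.0123). In immature cells it averaged 122 ± 25.9 (SD, n = 4), against 242 ± 84.1 in progenitor cells (SD, n = 3). The arrays of this step do not overlap, but the difference did not pass (-0.87 ± 0.28, adjusted p = 0.163), except with array quality weights (adjusted p = 0.0236).

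Igfbp7, the secreted protein that binds IGFs weakly, was bright in all groups. It averaged 3777 ± 917 in progenitor cells (SD, n = 3), against 2559 ± 702.5 in stem cells (SD, n = 5), a log2 change of 0.57 ± 0.24 that did not pass the test (adjusted p = 0.0653). It did pass with quantile normalization (0.25, adjusted p = 0.00563), without the lowest 40% of probe sets (0.0435), and without progenitor replicate 1 (0.0263), immature replicate 1 (0.0393) or stem replicate 1 (0.0206). Adult cells were above stem cells by 0.70 ± 0.22 (adjusted p = 0.0126), but not without adult replicate 3 (adjusted p = 0.0562).

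**Figure D2:**
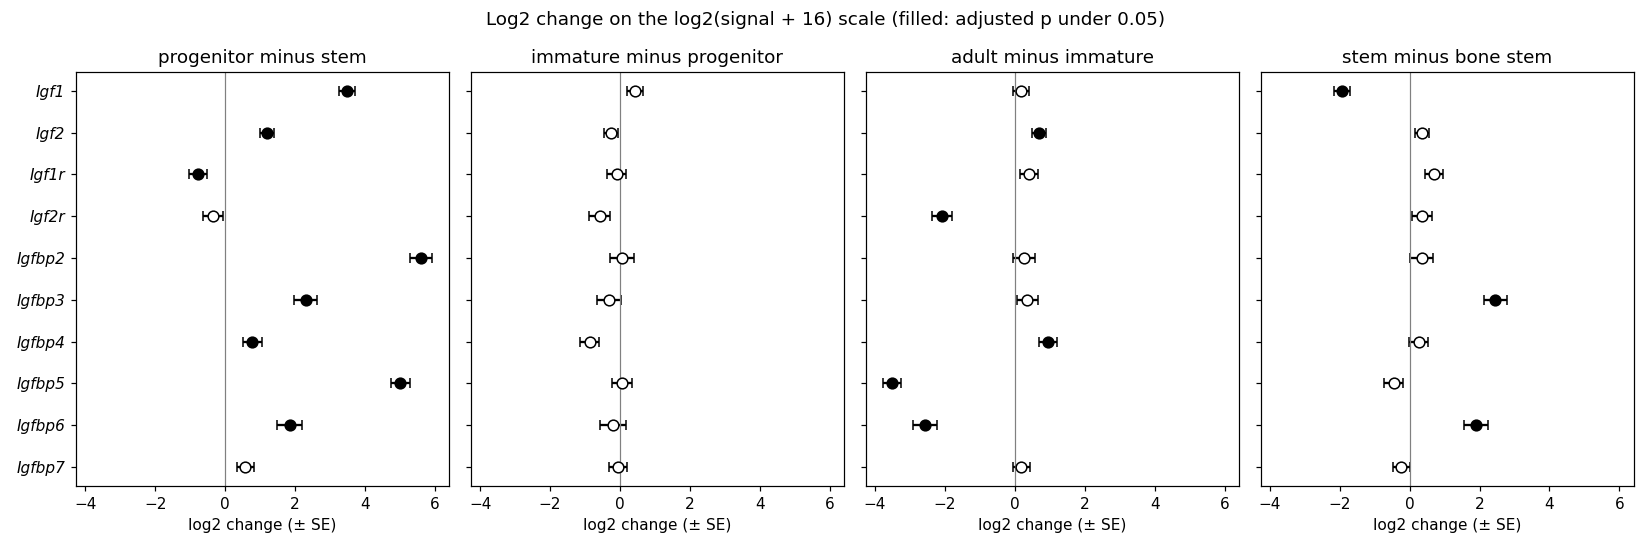
Log2 change of each member gene (± SE, log2(signal + 16) scale) in 4 comparisons, with filled points for an adjusted p under 0.05. Igfbp2 and Igfbp5 rise at 5.60 and 5.01 in progenitor against stem cells, no point is filled in immature against progenitor cells, and Igf2r, Igfbp5 and Igfbp6 lie at -2.09, -3.52 and -2.56 in adult against immature cells.

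From one end of the lineage to the other, adult against stem cells, 7 members rose and 2 fell (41.8% of all probe sets were called, 21.3% higher and 20.5% lower). Without the lowest 40% of probe sets, 9 members were called beside 61.8%. Igfbp2 (5.93 ± 0.29), Igf1 (4.07 ± 0.21), Igfbp3 (2.34 ± 0.30) and Igf2 (1.65 ± 0.19) rose without overlap of the arrays. Igf2r fell without overlap (-3.02 ± 0.26, adjusted p = 6.12e-09). Igf1r did not pass (-0.46 ± 0.24, adjusted p = 0.144), except without stem replicate 3 (adjusted p = 0.0452) and with array quality weights (0.0292). Ordered by mean signal over the 4 stages, Igf1, Igfbp2 and Igf2 were highest in adult cells and lowest in stem cells, Igf2r was highest in stem and lowest in adult cells, and Igfbp5 was highest in immature and lowest in stem cells. Igfbp6 was highest in progenitor and lowest in adult cells. Within these orders, progenitor and immature cells did not differ in the test for any of the genes.

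Markers of other cells moved with the same groups. Counts of called markers are read beside the shares of all probe sets called higher and lower. These were 22% and 14.7% in progenitor against stem cells, and 0.876% and 0.425% in immature against progenitor cells. They were 8.05% and 13% in adult against immature cells, and 21.3% and 20.5% in adult against stem cells. The 14 leukocyte markers summed to 6371.8 to 8469.3 in progenitor arrays, against 728.7 to 1220.4 in stem arrays, and 8 rose and 1 fell. They summed to 1670.9 to 4307.5 in adult arrays, against 3385.8 to 8224.3 in immature arrays, where 6 fell, 1 rose and 7 were not called. The median log2 change of the 14 was 0.29 there, so the list did not fall as a whole. The 3 measured erythroid markers, which include the beta-globin gene Hbb, summed to 3378.9 to 5207.4 in progenitor arrays, against 5.5 to 19.5 in stem arrays, and all 3 rose. They summed to 267.7 to 693.9 in adult arrays, against 2441.1 to 5239.5 in immature arrays, and all 3 fell. C1qa, C1qb, C1qc and Cd3e of the leukocyte list and all 3 erythroid markers lay under 16 on every stem array. The 8 endothelial markers summed to 1006.7 to 1931.3 in progenitor against 328.7 to 512.1 in stem arrays (6 rose), and to 589.3 to 2961.1 in adult against 300.3 to 850.3 in immature arrays (6 rose). The 6 smooth muscle markers summed to 352.9 to 419.1 in progenitor against 5432.9 to 11845.9 in stem arrays, and all 6 fell. The 4 measured germ cell markers summed to 129.8 to 286.5 in progenitor, 304.5 to 820.4 in immature and 622.8 to 1228.7 in adult arrays, against 8.9 to 13.2 in stem arrays, where all 4 lay under 16. Of these 4, 1 rose in progenitor against stem cells, 3 rose in immature against progenitor cells, 1 rose and 1 fell in adult against immature cells, and 4 rose in adult against stem cells. The 4 measured Sertoli cell markers summed to 275.1 to 604.6 in progenitor, 530.2 to 873.1 in immature and 1007.6 to 2027.7 in adult arrays, against 18.7 to 46.6 in stem arrays. Of these, 2 rose in progenitor against stem cells, 0 passed in immature against progenitor cells and 1, Cldn11, rose in adult against immature cells. Cldn11, a tight junction gene, made up most of that sum. Amh lay under 16 on every stem, immature and adult array, but not on every progenitor array. Sox9 and Fshr of the Sertoli list had no named probe set. The part of these cells in the changes of the IGF genes was not tested.

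Stem Leydig cells were also set against bone stem cells. Of the 10 genes, 2 were higher and 1 was lower in stem Leydig cells, beside 18.5% of all probe sets (9.79% higher, 8.73% lower). The same 3 of 10 were called beside 11.8% of all probe sets with the closest pairs averaged, and beside 12.1% without bone stem replicate 2 or without replicate 3. Without the lowest 40% of probe sets the same 3 were called beside 31.1%, a share close to 3 of 10. Of all calls 52.9% were higher, and 40.7% with median centring. Igfbp3 averaged 148 ± 58.5 in stem Leydig cells (SD, n = 5), against 11.96, 27.7 and 3.38 on the bone stem arrays, of which 2 lay under 16, without overlap (log2 change of stem Leydig against bone stem cells 2.45 ± 0.33, adjusted p = 1.24e-05). Igfbp6 averaged 453 ± 203 in stem Leydig cells (SD, n = 5), against 103.5 ± 39.3 in bone stem cells (SD, n = 3), without overlap (1.90 ± 0.35, adjusted p = 0.000495). Igf1 averaged 149 ± 60.5 in stem Leydig cells (SD, n = 5), against 585.5 ± 21.3 in bone stem cells (SD, n = 3). It was lower on every stem Leydig array (-1.93 ± 0.22, adjusted p = 2.23e-06), and its other probe sets gave -0.68 ± 0.23 (adjusted p = 0.0434) and -0.11 ± 0.37 (adjusted p = 0.901).

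Igfbp2 and Igfbp5 were low in both kinds of stem cell. Igfbp2 averaged 61.5 ± 17.0 in stem Leydig cells, against 121.65, 21.9 and 26.1 on the bone stem arrays, and the difference of 0.34 ± 0.32 (adjusted p = 0.569) passed the test without bone stem replicate 1 (0.93, adjusted p = 0.0142) and with array quality weights (0.65, adjusted p = 0.0316). Igfbp5 averaged 11.1 ± 13.7, under 16, in stem Leydig cells, against 16.65, 18.2 and 20.5 on the bone stem arrays, and differed by -0.46 ± 0.27 (adjusted p = 0.294), and by -0.72 without stem replicate 3 (adjusted p = 0.018). Igf1r differed by 0.69 ± 0.26 (adjusted p = 0.0763), and by 0.85 without stem replicate 3 (adjusted p = 0.0229). Without stem replicate 3, 5 of the 10 genes were called beside 20.4% of all probe sets, and with array quality weights 8 beside 35.4%. Igf2, Igf2r, Igfbp4 and Igfbp7 did not pass (adjusted p = 0.263, 0.472, 0.609 and 0.594). With array quality weights Igf2 (0.40, adjusted p = 0.0431), Igf2r (0.61, adjusted p = 0.0111), Igf1r (0.64, adjusted p = 0.00736) and Igfbp5 (-0.64, adjusted p = 0.00826) were called, and the second Igf2r probe set was called higher in stem Leydig cells (0.93 ± 0.27, adjusted p = 0.018). Leukocyte markers summed to 728.7 to 1220.4 in stem Leydig arrays, against 13597.6 to 17134.8 in bone stem arrays, and 10 of 14 were lower. The beta-actin 3′ to 5′ ratio was 1.03 to 1.84 on stem Leydig arrays, against 2.38 to 2.95 on bone stem arrays, so RNA quality and kind of cell cannot be told apart here, and the part of the leukocyte signal was not tested.

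The 13 probe sets that do not represent their gene gave no call opposite to the one that does in the 5 comparisons. Their call was the same for 8 of 13 in progenitor against stem cells, 13 of 13 in immature against progenitor cells and 9 of 13 in adult against immature cells. The same call was made for 5 of 13 in adult against stem cells and 11 of 13 in stem Leydig against bone stem cells. These counts include pairs in which neither probe set was called. All 13 were so in immature against progenitor cells. So were those of Igf1, Igf1r and Igfbp3 in adult against immature cells, and of Igf1r, Igf2 and Igfbp5 in stem Leydig against bone stem cells. Those of Igf2r in progenitor against stem cells and Igf1r in adult against stem cells were too. Of the 23 probe sets, 4 lay under 16 on every array. Progenitor replicate 3, the array with the high 3′ to 5′ ratio, stood apart in probe sets of Igf1 and Igfbp5. The third Igf1 probe set read 133 there, against 287 and 344 on the other progenitor arrays. The representing probe set of Igfbp5 read 719 there and 795 and 865 on the other progenitor arrays. Another Igfbp5 probe set read 2.23, under 16, there against 61.0 and 57.65, and a further one read 23.1 against 125 and 90.8. One more ran the other way, at 212 against 48.5 and 76.1. Without progenitor replicate 3 and immature replicate 4 together, every member called in the 3 steps between stages was called again in the same direction.

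**Figure D3:**
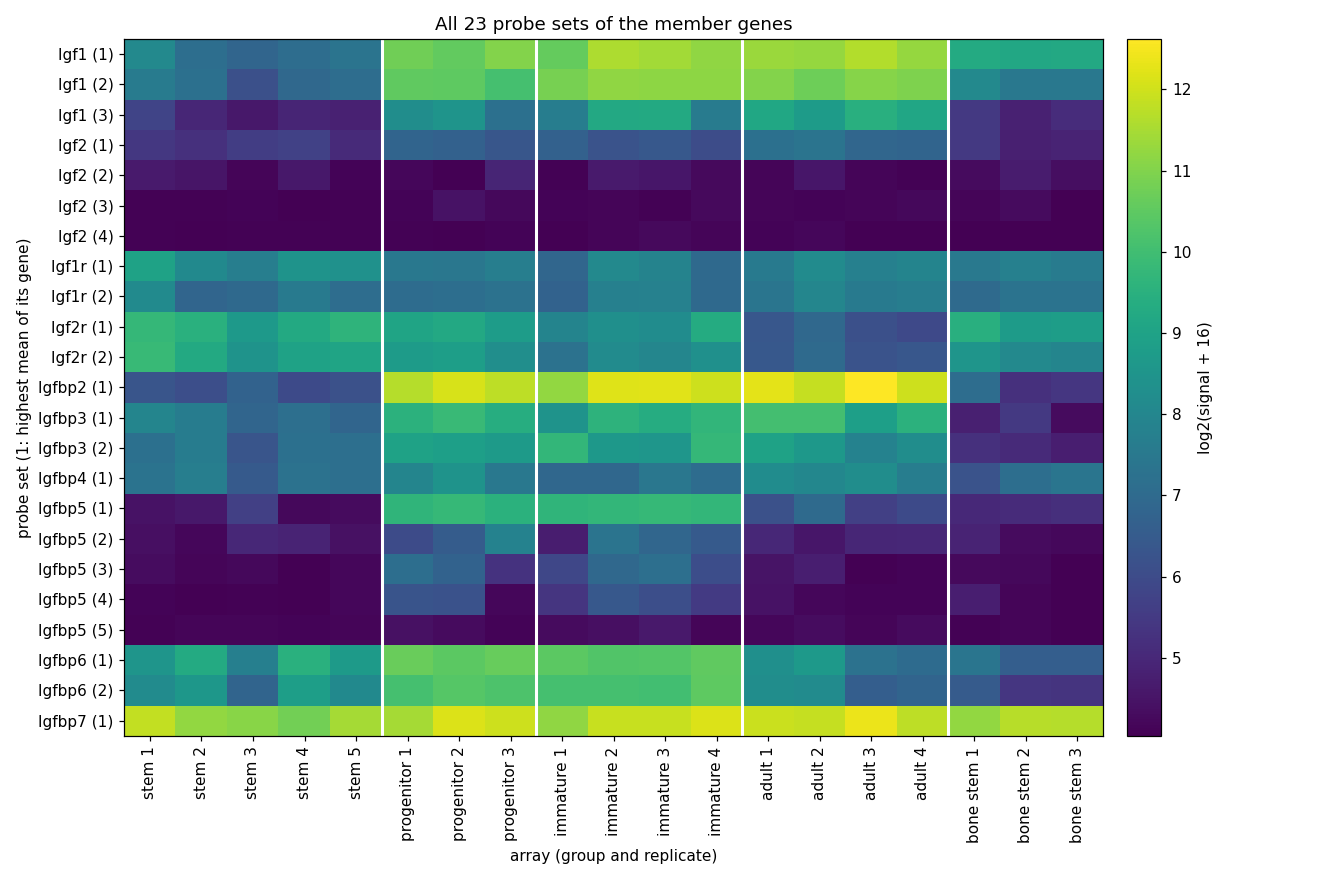
Log2(signal + 16) of all 23 probe sets (rows, numbered within a gene from the highest mean) on the 19 arrays (columns), with white lines between groups. Both probe sets of Igf2r and of Igfbp6 change together from group to group, whereas 3 of the 4 Igf2 probe sets and the fifth of Igfbp5 stay at the dark end on all arrays.

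A list of 52 other genes of the pathway, of which 46 had a named probe set, placed these changes beside the rest of the IGF system. The list was drawn up with earlier results of these data known. In progenitor against stem cells 10 rose and 12 fell (median 0.07, against 0.08 over all probe sets). In immature against progenitor cells 0 rose and 2 fell, in adult against immature cells 8 rose and 8 fell, and in stem Leydig against bone stem cells 6 were higher and 3 lower. As a share of 46, these counts are read beside the 36.7%, 1.3%, 21.1% and 18.5% of all probe sets called. Each listed gene is represented by its brightest probe set, whereas these shares include many dim ones. Without the lowest 40% of probe sets the shares were 54%, 2.35%, 35.1% and 31.1%.

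Among adaptors and inhibitors of the receptors, Grb14, which binds the activated insulin and IGF1 receptors and dampens them, averaged 672 in progenitor cells against 14.2, a mean under 16, in stem cells (log2 change 4.52 ± 0.12, adjusted p = 2.92e-16), a change whose size depends on the pseudocount. It then fell at both later steps, by 0.59 on the log2 scale in immature against progenitor cells (adjusted p = 0.022) and by 1.26 in adult against immature cells (adjusted p = 1.87e-07). The first of these calls was lost without progenitor replicate 1 (adjusted p = 0.0833) or 2 (0.0884) and without immature replicate 1 (0.0768), 2 (0.0614) or 3 (0.0741). It was also lost with the closest pairs averaged (0.0968), these groups alone (0.226), median centring (0.0832) and a pseudocount of 1 (0.0958). It averaged 14.2 (under 16) in stem Leydig cells against 448 in bone stem cells (-3.95 ± 0.12). Irs3, an insulin receptor substrate of rodents, rose in progenitor cells (0.96 ± 0.19) and stood at 286 in adult against 40.1 in stem cells (2.44 ± 0.17). The adaptor Shc1 fell in progenitor cells, at 269 against 629.7 in stem cells (-1.18 ± 0.10).

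Proteases of the binding proteins and their inhibitors, 8 of 10 measured, changed in 6 cases at the first step, where 2 rose and 4 fell. Of all probe sets, 22% rose and 14.7% fell at this step. Htra1, a secreted protease that can cleave IGFBPs, averaged 420.0 in progenitor against 2323 in stem cells (-2.39 ± 0.17), and 1029 in adult against 440.3 in immature cells (1.21 ± 0.16). Stc1, a stanniocalcin, the family whose members inhibit pappalysins, averaged 376 in progenitor against 73.3 in stem cells (2.23 ± 0.42) and fell in immature against progenitor cells (-2.11 ± 0.44, adjusted p = 0.0192). That call was lost without progenitor replicate 2 (adjusted p = 0.0678) or 3 (0.0831), without immature replicate 1 (0.0637), 2 (0.0609) or 3 (0.0519), with the closest pairs averaged (0.0664) and with these groups alone (0.129). In adult against immature cells the lysosomal protease gene Ctsd rose (0.88 ± 0.16) and Plat, the tissue plasminogen activator, fell (-1.11 ± 0.29), though not with these groups alone (adjusted p = 0.0716). Between stem Leydig and bone stem cells Plat was higher (1.40 ± 0.30) and Ctsd lower (-0.98 ± 0.17).

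In the intracellular chain, 4 of 14 rose and 2 fell in progenitor against stem cells (22% and 14.7% of all probe sets). The kinase subunit Pik3r2 rose (1.19 ± 0.13), and Eif4ebp1, the translation repressor that mTOR inactivates, fell (-1.70 ± 0.15), to 198.5 in adult against 1089.9 in stem cells (-2.38 ± 0.14). In adult against immature cells 1 rose and 5 fell (8.05% and 13% of all probe sets). All 5 falls lost their call with median centring: Pik3ca (adjusted p = 0.206), Pdpk1 (0.212), Tsc2 (0.321), Rps6kb1 (0.227) and Eif4ebp1 (0.214). Quantile normalization also removed the calls of Tsc2 (0.1) and Rps6kb1 (0.0942). The kinase gene Pdpk1 was among those that fell (-0.48 ± 0.14). Its call was lost without immature replicate 4 (adjusted p = 0.0539), also with progenitor replicate 3 out (0.0513), with median centring (0.212) and in the mean of its probe sets (0.929). The insulin receptor gene Insr was higher in adult than in immature cells, at 104.8 against 51.3 (0.84 ± 0.16).

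The 3 genes of RNA-binding proteins that hold Igf2 mRNA all fell in progenitor and in adult cells, each against stem cells. Of all probe sets, 14.7% and 20.5% fell in these comparisons. Igf2bp2 averaged 45.6 in progenitor against 301.5 in stem cells (-2.36 ± 0.23, adjusted p = 5.6e-08) and 12.5, under 16, in adult against 34.4 in immature cells (-0.82 ± 0.22), a call lost with these groups alone (adjusted p = 0.0848), in the mean of its probe sets (0.0775) and without progenitor replicate 3 and immature replicate 4 together (0.0501). Igf2bp3 averaged 4.51, under 16, in adult against 117 in stem cells (-2.67 ± 0.22). Igf2bp1 averaged 11.7 in progenitor and 8.66 in adult cells, both under 16, against 27.6 in stem cells. Its fall in progenitor cells was lost without progenitor replicate 1 (adjusted p = 0.067) or 2 (0.0512) and with a pseudocount of 1 (0.111). Both Igf2bp2 (0.84 ± 0.23) and Igf2bp3 (1.18 ± 0.24), and Igf2bp1 (1.19 ± 0.19), were higher in stem Leydig than in bone stem cells. In bone stem cells Igf2bp1 averaged 2.775, under 16, so the size of its change depends on the pseudocount. The call of Igf2bp2 there was lost without bone stem replicate 1 (adjusted p = 0.0655), with a pseudocount of 1 (0.0951) and in the mean of its probe sets (0.122). In the growth hormone arm, which drives Igf1 in liver, all 4 measured genes rose in adult against stem cells (21.3% of all probe sets rose). Its receptor gene Ghr averaged 121 in adult against 31.6 in immature cells (1.54 ± 0.22) and was lower in stem Leydig than in bone stem cells (-1.07 ± 0.23), though not in the mean of its probe sets (adjusted p = 0.0588). The other binding protein gene Igfbp1, its relative Igfbpl1 and Igfals, the acid-labile subunit of the blood complex, lay under 16 on every array and 0 of these 3 were called.

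**Figure D4:**
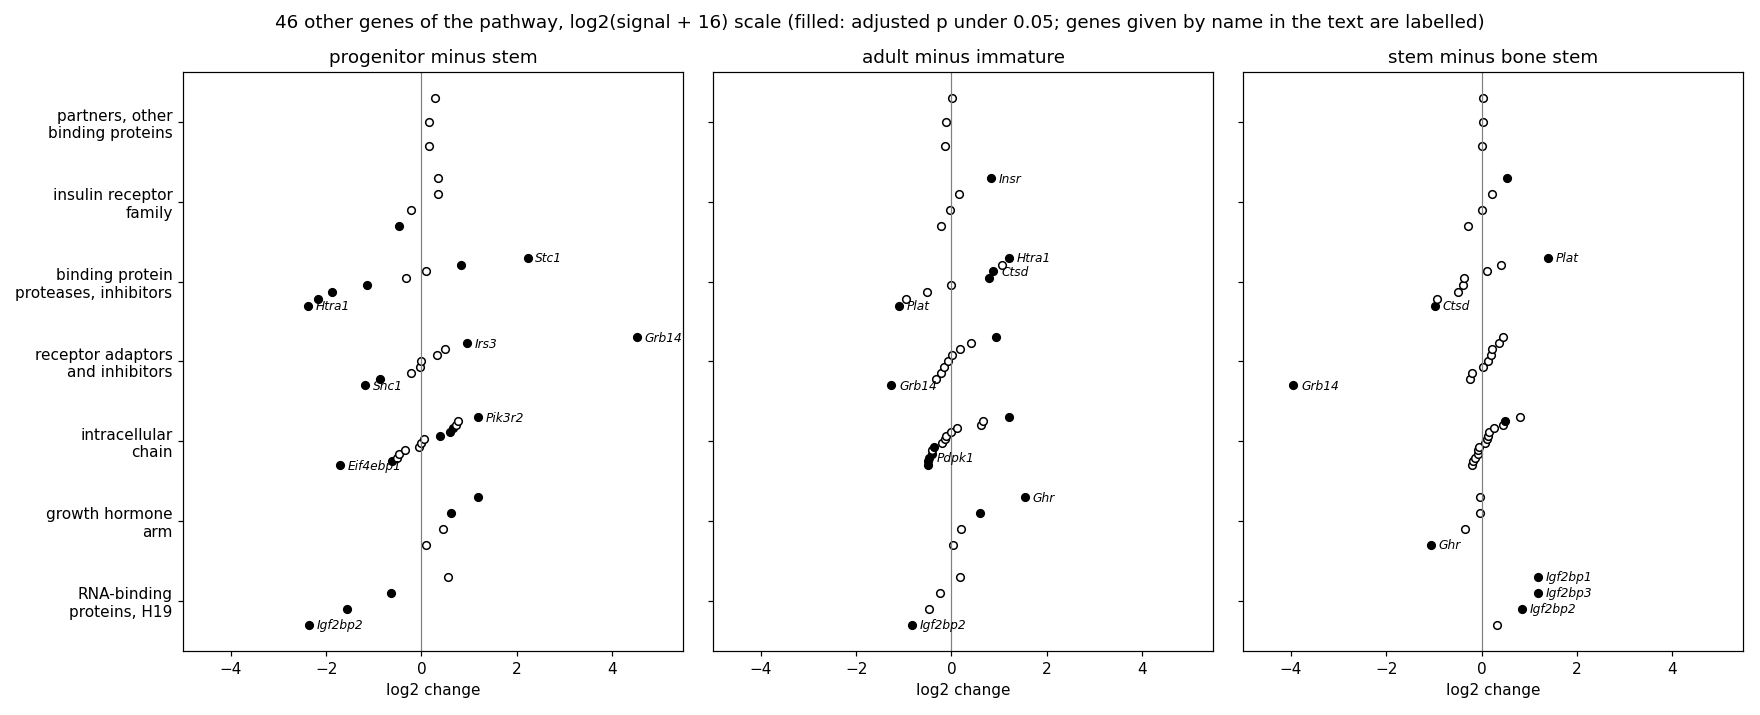
Log2 change (log2(signal + 16) scale) of the 46 other pathway genes by role, in progenitor against stem, adult against immature and stem Leydig against bone stem cells, with filled points for an adjusted p under 0.05. Grb14 stands out at 4.52 and -3.95 in the first and last panels, and the Igf2bp genes lie below 0 in the first panel and above 0 in the last.

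For each member, the 3 genes with the most alike pattern were taken by Pearson's r of the log2 values over the 19 arrays, among 7961 genes with a group mean of at least 100. These arrays fall into groups, so r mostly reads the differences between groups. Igfbp2 was most like Acsbg1 and Mmd2 (r = 0.995 each) and Fdx1, the ferredoxin that feeds electrons to steroid-making P450 enzymes (0.994). Igf1 was most like Tmem176b (0.988), Pced1b (0.981) and Tmem176a (0.979). Igfbp5 was most like Ccdc3 (0.986) and the lymphocyte receptor genes Klrd1 (0.980) and Il2rb (0.979). Igfbp3 was near Egflam (0.956), the steroidogenic regulator Nr5a1 (0.954) and Fxyd1 (0.949), and Igfbp6 near Dpep1 (0.963), Lama2 and Ltbp4 (0.943 each). Igf2 was near Pex5 and Ifi44l (0.959 each), Igf2r near Kctd9 (0.974) and Prkci (0.967), and Igfbp7 near the ribosomal protein genes Rps9 (0.965), Rpl22 (0.962) and Rps6 (0.956). The least matched were Igf1r, with Nab1 at 0.813, and Igfbp4, with Lonp1 at 0.773.

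Among the members themselves, over the same 19 arrays, Igf2 and Igfbp2 (r = 0.91), Igf1 and Igfbp2 (0.90) and Igfbp2 and Igfbp3 (0.87) were most alike. Igfbp5 and Igfbp6 had r = 0.76. Igf2 and Igf2r were the most opposed (r = -0.70), followed by Igf1 and Igf2r (-0.61). These values are descriptions of arrays that share groups, and carry no test.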

How the data were processed

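The deposited table holds 1 intensity per probe set and array on a linear scale, for which the submitters' processing notes name MAS5 and GCOS without versions. Per the labels' protocols, 6 ug of total RNA gave the biotin-labelled cRNA. Of 31099 probe sets, 57 controls were dropped. The platform annotation gives 1 gene symbol to 20826, several to 436 and none to 9780, and 20758 of the 20826 matched RefSeq by gene ID, which updated 0 symbols. The median signal was 18.9 to 36.6 per array, and the 2% trimmed mean was 100 on each array.

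Here log2(signal + 16) of all 19 arrays were fitted together, with a mean for each of the 5 groups, by limma 3.58.1 under R 4.3.3, using an intensity trend and two-sided tests adjusted by Benjamini-Hochberg over 31042 probe sets. The fit was tested on simulated data. Python 3.11.15, pandas 2.3.3 and matplotlib 3.10.9 were used for tables and plots.

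The members, gene lists, tests and alternatives were chosen with earlier results of these data known. The rule named all 10 members, up to 4 called pathway genes with the smallest adjusted p per direction and comparison, and the 3 most alike genes of each member. Alternatives were scaling, pseudocount, a filter on dim probe sets, the trend, array weights, the groups fitted, a replicate block, averaging of probe sets, and leaving out or averaging arrays. Upstream windows came from RefSeq (GRCr8).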

Additional observations from a re-analysis of the deposited data

Results flagged for a closer look

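Within groups of 4 or 5 arrays, the highest or lowest array was set against the rest of its group by Dixon's test at 95% on the log2 scale, for the 10 members and the other pathway genes given by name. Of 75 combinations of gene and group 8 stood apart, and chance gives about 5%. Igf1 was at 3140.6 on adult replicate 3, against 2461.4 to 2538.0 on the other adult arrays. Igfbp5 was at 35.2 on stem replicate 3, against 2.8 to 8.1 on the other stem arrays. On the same stem array Ghr was at 46.4, against 14.5 to 20.0, and Pdpk1 at 280.4, against 393.7 to 437.8. Eif4ebp1 was at 834.4 on stem replicate 4, against 1121.7 to 1177.7. Irs3 was at 84.2 on immature replicate 4, against 160.2 to 177.7. The last pair lies at low signal: Igf2bp2 was at 27.97 on adult replicate 2, against 6.2 to 8.4, and Igf2bp1 at 0.69 on immature replicate 3, against 7.3 to 8.0. The part of stem replicate 3 in the comparison of stem Leydig with bone stem cells is given with that result.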

How the results depend on the processing

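The 31 alternatives gave 2170 values for 70 differences of the 10 genes, of which 2084 kept direction and side of the threshold, 20 lost a call, 31 gained one and 35 changed sign. None of the 35 was called under either setting, and 29 of 36 called differences were called the same way throughout. Whether replicate numbers shared by groups pair the samples could not be decided, since correlations of deviations from the means of such small groups are imprecise. Of 33 same-number pairs, 9 correlated over 0.1 (range -0.379 to 0.281). With a replicate block the calls of Igf1r (-0.79, adjusted p = 0.056) and Igfbp4 (0.74, adjusted p = 0.0733) in progenitor against stem cells were lost. Those of Igf1r (adjusted p = 0.0594) and Igfbp7 (0.0722) in the F-test over stages were lost too. No other call on the 10 genes changed with the block. Changes of sign, as log2 values, were these. With quantile normalization Igfbp7 gave 0.01 in immature against progenitor, -0.03 in adult against immature, -0.02 in adult against progenitor and 0.18 in stem against bone stem cells, Igf1 gave -0.07 in adult against immature and Igfbp3 -0.1 in adult against progenitor cells. With array quality weights Igf1r (0.25) and Igfbp7 (0.01) turned in immature against progenitor, and Igfbp3 (-0.07) and Igfbp4 (-0.13) in adult against progenitor cells. With all probe sets averaged Igf1r gave 0.03 in immature against progenitor, and Igfbp3 -0.18 in adult against immature and -0.2 in adult against progenitor cells. Without progenitor replicate 3 and immature replicate 4, Igf1r gave 0.15 and Igfbp5 0 in immature against progenitor, and Igfbp3 -0.07 and Igfbp4 -0.16 in adult against progenitor cells. With the closest pairs averaged Igfbp2 gave -0.04 in immature against progenitor cells. Leaving out 1 array at a time, immature against progenitor cells ranged from -0.31 to 0.1 for Igf1r, -0.05 to 0.29 for Igfbp2, -0.01 to 0.13 for Igfbp5 and -0.26 to 0.14 for Igfbp7. Adult against immature cells ranged from -0.02 to 0.3 for Igf1 and -0.01 to 0.31 for Igfbp7, and adult against progenitor cells from -0.1 to 0.29 for Igfbp3, -0.16 to 0.31 for Igfbp4 and -0.08 to 0.28 for Igfbp7. Igfbp4 ranged from -0.08 to 0.49 in stem against bone stem and -0.28 to 0.03 in immature against stem cells. In immature against progenitor cells 1 member was called with array quality weights, against 0. The 2 other pathway genes called there became 4 with array quality weights, 1 with median centring or a pseudocount of 1, 0 with the closest pairs averaged or only these groups fitted, and 0 to 3 leaving out 1 array. In stem against bone stem cells array quality weights called 8 members and 16 other pathway genes, against 3 and 9, and leaving out 1 array called 3 to 5 members. Calls over all probe sets ranged from 17 to 1456, against 404, in immature against progenitor cells and from 3674 to 10996, against 5749, in stem against bone stem cells. The cause of these changes was not tested. Signals under 16 limit what can be read of Igfbp5 in stem and Igfbp3 in bone stem cells.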

Other observations

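The 4 immature arrays did not read every IGF probe set alike. On immature replicates 1 and 4 the third Igf1 probe set was at 187 and 179, and on replicates 2 and 3, the closest pair of arrays in the group, at 586 and 589. The representing probe set of Igf1r was at 101 and 110 on replicates 1 and 4 and at 255 and 219 on replicates 2 and 3. The second Igfbp3 probe set ran the other way, at 827 and 841 on replicates 1 and 4 and at 373 and 357 on replicates 2 and 3, while Igfbp5 stayed between 785 and 859 on all of them. The sources used here give no batch for these arrays.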
